A study of Drosophila melanogaster with 2 samples.

Results

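The regions described here are peaks of ranshi-eGFP binding that lie in introns near gene starts. They were drawn from the conservative set of the series, the peaks that recurred between replicates at an irreproducible discovery rate (IDR) within the deposited limit. A peak was taken when its summit was more than 500 bp and at most 5000 bp from the closest transcript start, inside an annotated gene and in no annotated exon. This held for 739 of the 2984 conservative peaks (24.8%). Some of the 739 overlap one another, 52 in all, and merging them leaves 713 separate regions. The values were measured by chromatin immunoprecipitation and sequencing of whole Drosophila melanogaster embryos collected from 0 to 24 h, in 1 group of 2 biological replicates. All embryos carried an inserted transgene for a fusion of the protein ranshi to eGFP, which was pulled down with an antibody to GFP. Embryos were pooled over the whole of embryogenesis and over all cell types, the labels do not say whether the untagged protein was also made, and control libraries were not analysed here.

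Ranshi belongs to the ZAD zinc finger proteins, a family that is large in insects and whose members share an amino-terminal zinc-binding domain through which they pair. Zinc finger arrays of this kind read DNA sequence directly. Introns of fly genes hold enhancers and alternative promoters, and the first intron, next to the start, is the usual place for them. A peak in an intron may therefore belong to the gene that holds it, the host gene, or to another gene nearby, and a peak list does not tell which.

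What the members had in common at the summit was sequence rich in A and T. The 3 windows printed here reach 50 bp to each side of the summits of CG11050, Tlk and norpA, which were among the members of highest signal, and capitals mark the pentamer CACTG (or CAGTG on the printed strand), which is taken up below. They are from the RefSeq assembly of build dm6, 5′ to 3′ on the plus strand. G+C in them was 20.8% at CG11050, 28.7% at Tlk and 30.7% at norpA.
CG11050, chr2L:6612663-6612763, plus strand: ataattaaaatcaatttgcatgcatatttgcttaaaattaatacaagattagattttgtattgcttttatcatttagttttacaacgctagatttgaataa
Tlk, chrX:3742177-3742277, plus strand: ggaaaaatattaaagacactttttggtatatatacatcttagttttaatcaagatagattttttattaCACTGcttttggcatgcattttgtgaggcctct
norpA, chrX:4324927-4325027, plus strand: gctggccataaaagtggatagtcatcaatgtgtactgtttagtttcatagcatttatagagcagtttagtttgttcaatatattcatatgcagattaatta

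Beside the A+T-rich summit, 80 of the 739 members carried a longer word that contains the same pentamer. The next windows were chosen to show where it lies. They begin 20 bases before the word or, where the summit comes first, 20 bases or so before the summit, and they run to a little past the other end. Each is printed 5′ to 3′ on the strand that carries the word as GCACAGTGG or CACAGTGGG, and capitals mark the word. The summit lay 113 bp downstream of the centre of the word at Trl, 78 bp downstream at NFAT, 80 bp at prage and 77 bp at Csk. At CG42327 it was on the other side, with a value of -104 bp.
Trl, chr3L:14759377-14759529, plus strand: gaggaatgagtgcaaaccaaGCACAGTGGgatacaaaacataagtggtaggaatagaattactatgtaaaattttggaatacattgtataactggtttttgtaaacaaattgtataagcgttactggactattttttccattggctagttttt
NFAT, chrX:13640414-13640531, plus strand: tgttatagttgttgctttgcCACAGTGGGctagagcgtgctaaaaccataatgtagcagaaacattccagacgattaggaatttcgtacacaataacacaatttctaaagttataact
prage, chrX:1830750-1830869, minus strand: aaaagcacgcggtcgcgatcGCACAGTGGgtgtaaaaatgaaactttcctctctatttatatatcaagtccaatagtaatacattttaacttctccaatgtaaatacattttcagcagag
CG42327, chr3R:11656797-11656940, plus strand: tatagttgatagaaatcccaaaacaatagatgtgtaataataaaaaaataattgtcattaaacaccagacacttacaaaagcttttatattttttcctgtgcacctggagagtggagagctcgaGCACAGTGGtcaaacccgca
Csk, chr3R:11649638-11649754, minus strand: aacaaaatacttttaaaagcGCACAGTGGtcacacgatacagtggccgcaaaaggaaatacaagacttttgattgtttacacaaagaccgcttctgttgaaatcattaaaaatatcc

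The word search used peaks that are not members. In the other 2245 conservative peaks, each word of 9 bases was ranked by the number of windows around summits that held it, less the number that held its letters in reverse order, a control of equal base composition. With 50 bp to each side of the summit, the main setting, none of the 10 leading words held CACTG, and 3 of them, made only of A and T, were more frequent in members than their backward forms. With 150 bp to each side 4 of 10 were. Among these 10 leading words, 3 contained the pentamer CACTG and the rest were made of A and T or, in 1 case, held a core promoter element. These 3 words were then counted in the members. CCACTGTGC, the same as GCACAGTGG on the other strand, was within 150 bp of the summit in 48 members (6.50%), and its backward form was in 0. The difference of 6.50 percentage points had a 99% interval from 4.33 to 9.24, which covers counting error only, as do all intervals given here. CACAGTGGG, which overlaps GCACAGTGG in all but 1 base, was in 33 members against 0 backwards (difference 4.47 points, 99% interval 2.65 to 6.86). CTCAGTGCA, the other strand of TGCACTGAG, was in 27 members against 2 backwards (difference 3.38 points, interval 1.60 to 5.62).

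One or more of these words, called core words here, were within 150 bp of the summit in 80 members (10.8%, exact binomial 95% interval 8.68 to 13.3), or 77 regions after merging. Among all conservative peaks the share was 9.45%, so the members carried them about as often as the set they come from. Intronic candidates met the same distance and intron rule but were peaks of the ranked list outside the conservative set. Of these candidates, 304 (1.82%) had a core word, which was 9.01 points below the members (99% interval of the difference 6.39 to 12.3). In windows 700 bp away from the summits, 2.03% of members had one. Against promoter peaks, whose summits were within 500 bp of a start, members had core words more often (6.53% of promoter peaks, difference 4.30 points, interval 1.08 to 7.92). Distal peaks, farther than 5000 bp from any start, had 15.7%, and the interval of the difference ran from -10.4 to 0.233 and included 0, as did that for intergenic peaks at the same distances from starts (9.06%, interval -4.17 to 6.57).

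The core words had a preferred side. Their direction was set on the other conservative peaks, so that most summits lay 3′ of the word, and it was then applied to the members. In members, 52 of 60 matches to GCACAGTGG (86.7%, exact 95% interval 75.4 to 94.1) had the summit on the 3′ side. The same held for 33 of 37 matches to CACAGTGGG and 27 of 29 matches to TGCACTGAG. The median distance from the centre of the word to a summit on that side was 83 bp for GCACAGTGG (quartiles 60 and 99), 85 bp for CACAGTGGG and 79 bp for TGCACTGAG. Taking 1 word per member, the summit was 3′ of it in 70 of 80 members and between 50 and 100 bp away in 44 of them. These values were chosen to be shown after the positions were seen, and the matches of overlapping members and of overlapping words are not separate observations.

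**Figure D1:**
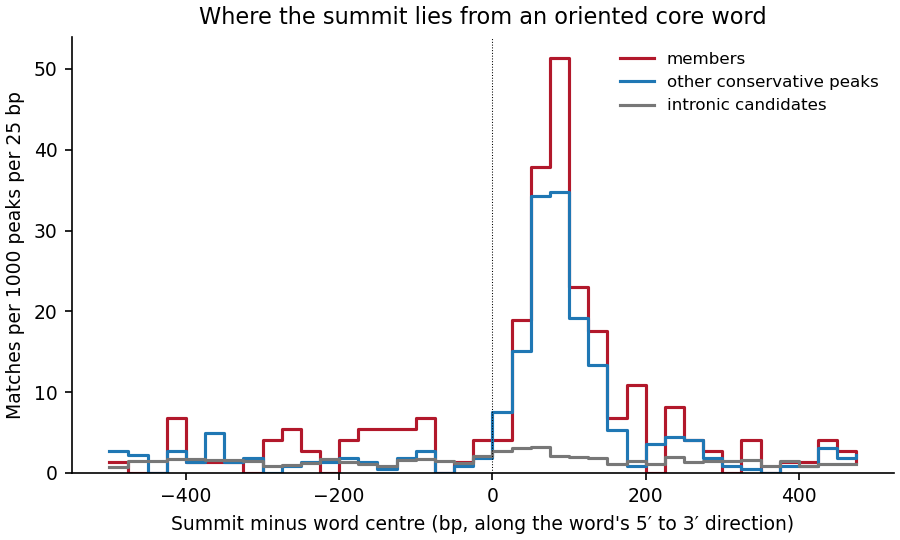
Position of the summit relative to the centre of a core word, in bp along the word (x axis), and matches per 1000 peaks per 25 bp (y axis), for the 739 members, the other 2245 conservative peaks and the 16744 intronic candidates. The members reach 51.4 matches per 1000 peaks between 75 and 100 bp on the 3′ side, against 6.77 at the same distance on the 5′ side, and the candidates rise only to 3.17, between 50 and 75 bp on the 3′ side.

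The base composition differed on the same sides. In the 80 members with a core word, the 100 bp on the 3′ side of the word had a mean G+C of 33.1% ± 8.86 (SD across members) and the 100 bp on the 5′ side had 47.6% ± 8.0. Each flank began 10 bp from the centre of the word. G+C was lower on the 3′ side in 68 of 80. Since the summit lies on that side and summits are A+T-rich, this is the same arrangement seen in the sequence. The word had no fixed direction relative to the host gene. Among the 78 of these members with 1 host, it was on the strand of the host in 46 (59.0%, exact 95% interval 47.3 to 70.0).

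Signals of members with and without a core word overlapped. The median signal, in the peak caller's own units, was 149 with a word (95% interval 112 to 197) and 133 without (126.3 to 141.4), and the intervals overlap. In 4 groups of nearly equal size ordered by signal, the share with a core word was 9.19%, 9.73%, 9.24% and 15.1% from the lowest to the highest, and the exact interval of the highest (10.3 to 21.1) overlapped the others.

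The pentamer CACTG itself depended on where it was looked for. Within 50 bp of the summit it was present in 156 members (21.1%), against 20.2% of all conservative peaks. It was in 16.4% of windows 300 bp to the right of member summits and in 18.5% of candidates. Right and left are on the reference strand, whatever the strand of the gene. The differences from the windows on the right and from candidates had intervals that included 0 (4.74 points, 99% interval -0.501 to 9.95, and 2.60 points, -1.09 to 6.78). In windows 300 bp to the left the share was 14.7%, and that difference excluded 0 (6.36 points, 1.22 to 11.5). The backward form was in 7.31% of member summits. Within 100 bp of the summit the members exceeded their flanks by 28.0 points (21.5 to 34.2) and the candidates by 23.3 points (18.5 to 28.0). By distance, 329 members (44.5%, exact 95% interval 40.9 to 48.2) had the pentamer between 50 and 100 bp from the summit, against 39.2% of the other conservative peaks (37.1 to 41.2) and 19.1% of candidates (18.5 to 19.7). The intervals of members and other conservative peaks overlap at their edges, which does not show equal shares. This difference was not tested. Within 25 bp of the summit, 74 members had it (exact 95% interval 7.94 to 12.4%), against 9.56% of candidates. The density of matches in members was 6.06 per kb in the zone from 50 to 100 bp, 2.11 per kb within 25 bp, and 1.87 per kb between 400 and 500 bp.

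**Figure D2:**
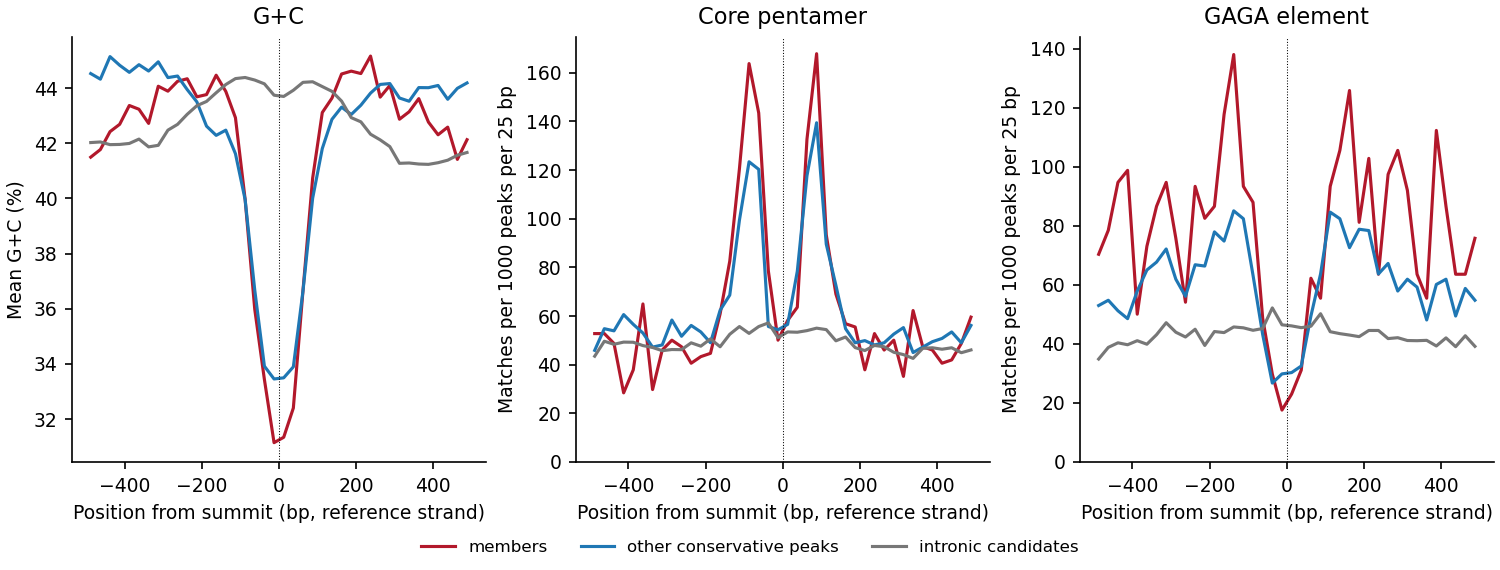
Mean G+C in percent (left), matches to the pentamer CACTG per 1000 peaks per 25 bp (middle) and matches to GAGAG per 1000 peaks per 25 bp (right), by position from the summit in bp on the reference strand, for members, other conservative peaks and intronic candidates. In members G+C falls to 31.1% just before the summit, the pentamer peaks on both sides at 164 and 168 matches, and GAGAG dips at the summit.

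Across all members the mean G+C was 32.1% ± 8.42 (SD across 739 members) within 50 bp of the summit, and 43.7% ± 9.36 and 43.4% ± 8.88 in windows 300 bp to the left and right. Candidates in the same kind of intron had 43.9% ± 8.67 at their summits. G+C was under 40% in 620 members (83.9%) and in 31.6% of candidates. Promoter peaks had 33.9% ± 10.5, so an A+T-rich summit was not particular to introns.

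Of 12 fixed motifs, 4 differed between the summit windows of the members and windows 300 bp to the right on the reference strand. The TATA box consensus (TATA, then A or T, then AA, then A or G) was in 10.1% against 2.71% (difference 7.44 points, 99% interval 4.22 to 10.9), but the same letters read backwards were in 15.6%. The homeodomain core TAATTA was in 12.6% against 6.22% (backwards 12.2%) and the GATA site (GATA with A or T before it and A or G after it) in 26.7% against 16.9% (backwards 26.5%). In all 3, the backward form, which has the same base composition, was about as frequent or more so. Over all conservative peaks the shares were 8.78% for the TATA box, 11.1% for the homeodomain core and 22.7% for the GATA site. The intervals of the members' differences from these shares included 0. The members are part of that set, and the intervals treat members and set as separate groups. They therefore do not decide whether members differ from the other conservative peaks. The GATA site was more frequent than at promoter peaks (20.9%, difference 5.75 points, interval 0.826 to 10.9). Its differences from intergenic peaks near starts (19.9%) and from distal peaks (23.7%) had intervals that included 0. GAGAG, the pentamer bound by GAGA factor, went the other way. It was in 8.39% of summits against 19.6% of windows on the right (difference -11.2 points, interval -15.9 to -6.63) and in 12.8% of candidates. It was in 8.14% of promoter summits and 8.78% of all conservative summits, so a low share was not particular to the members. GAGAG reads the same backwards, so base composition had no control here.

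GAGAG was also more frequent beside the members than beside candidates. In the windows 300 bp to the right its share was 19.6% for members and 11.7% for candidates, a difference of 7.92 points (99% interval 4.37 to 12). It was 13.8% for promoter peaks, 16.4% for intergenic peaks near starts and 15.3% over all conservative peaks. Between 150 and 250 bp from the summit it was present in 276 members (37.3%, exact 95% interval 33.8 to 40.9), 29.0% of the other conservative peaks (27.1 to 30.9) and 22.8% of candidates (22.1 to 23.4). Between 400 and 500 bp these shares were 32.5% (29.1 to 36.0), 24.3% (22.6 to 26.2) and 21.8% (21.2 to 22.4). The higher share in members was thus not limited to the sequence next to the peak. DRE (TATCGATA) was in 2 members (0.271%) against 3.30% of promoter peaks, a difference of -3.03 points (interval -4.5 to -1.53). The BEAF-32 core CGATA was in 10.1% against 18.6% (difference -8.45 points, interval -12.2 to -4.36), and Motif 1, a core promoter element, was in 0 of 739 members and 7 promoter peaks (0.491%), a difference of -0.491 points whose interval included 0 (-1.25 to 0.447). The 9-base word CTATCGATA, which contains DRE, was within 150 bp of the summit in 1 member and in 93 promoter peaks. The Initiator (TCA, then G or T, then T, then C or T) was in 26.8% against 21.1% of flanks, the E-box CAGCTG in 2.57% against 4.19%, the E-box CACGTG in 0.541% against 1.35% and the Zelda site CAGGTA in 1.76% against 2.84%, and the intervals of these 4 differences included 0. Both strands were searched for every motif.

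Where members lay in their genes was compared with the intronic candidates, which passed the same distance and intron rule. The sequence that meets the rule, called eligible intron here, makes up 24.5 Mb or 17.8% of the assembled arms and held 24.8% of conservative peaks, or 30.2 per Mb against 21.7 per Mb over the arms (a ratio of 1.39, 95% interval 1.29 to 1.5). Intron farther than 5000 bp from a start held 11.3 per Mb and promoter sequence 79.2. Within the eligible intron, the density of members fell with distance, from 48.3 per Mb between 500 and 1000 bp (95% counting interval 42.0 to 55.3) to 36.0 between 1000 and 2000 bp and 18.7 between 4000 and 5000 bp (14.4 to 23.8). Candidates showed no such fall, with 659 per Mb in the nearest zone and 681 in the farthest. The median distance to the closest start was 1546 bp in members (95% interval 1432 to 1678) and 2166 bp in candidates (2138 to 2200).

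**Figure D3:**
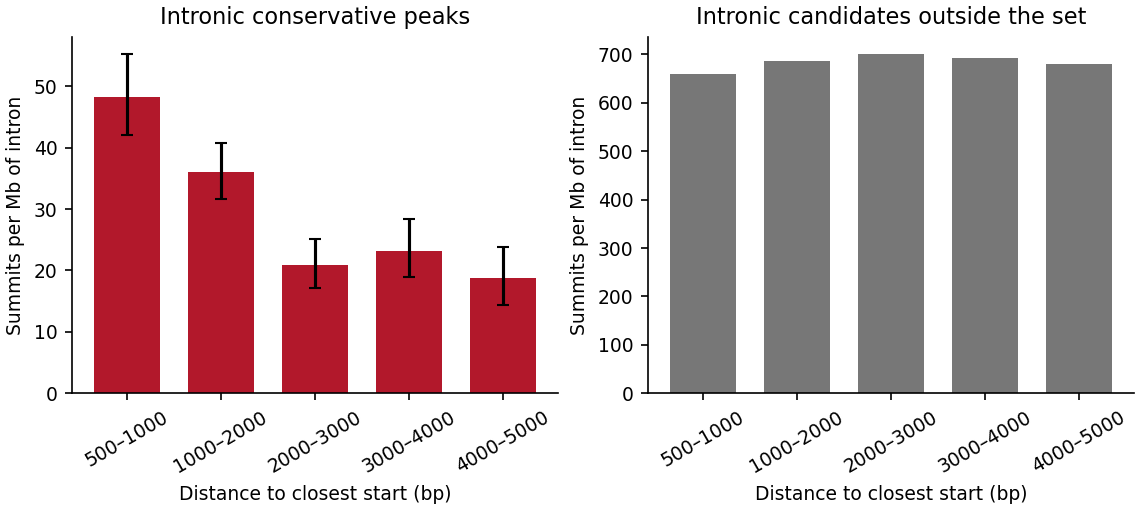
Summits per Mb of intron (y axis) by distance to the closest transcript start in bp (x axis) for members (left, with 95% counting intervals) and for intronic candidates outside the conservative set (right). The members fall from 48.3 to 18.7 per Mb while the candidates stay between 659 and 701.

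Members were in a first intron of some transcript in 563 cases (76.2%), against 61.5% of candidates, a difference of 14.7 points (99% interval 10.3 to 18.6). The closest start belonged to a host gene for 602 members (81.5%) and for 66.9% of candidates (difference 14.6 points, 10.5 to 18.1). Of the 602, 423 were downstream of that start and 179 upstream of it, between starts of the same gene, and for the other 137 members the closest start was that of another gene. Upstream of an own start lay 24.2% of members and 15.6% of candidates (difference 8.63 points, 4.74 to 13). Summits close to splice sites were rare. In 7 members (0.947%) the summit was within 50 bp of one, against 8.41% of candidates, and 40 members (5.41%) were in introns of 1000 bp or less against 11.9%. The median intron length was 6998 bp in members and 7356 bp in candidates, and the 95% intervals (6311 to 7778 and 7183 to 7602) overlap.

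At the limits of the rule, the members nearest to a start were in hebe (502 bp, signal 85.1) and CG9981 (505 bp, signal 236), and the intronic peaks just under the limit were in Pcyt1 (500 bp, 77.1) and Pino (499 bp, 173). At the outer limit the last members were in Gug (4970 bp, 167) and ush (4961 bp, 228), and the next intronic peaks were in tara (5001 bp, 198) and Liprin-gamma (5007 bp, 77.3).

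The X chromosome held 198 members (26.8%, exact 95% interval 23.6 to 30.1), against 20.4% of all conservative peaks and 21.0% of intronic candidates. Per Mb of eligible intron this was 41.1 members on X, and 31.2 on 3R, 29.6 on 3L, 27.3 on 2R and 23.1 on 2L. Candidates had 729 per Mb on X, between 615 on 2L and 766 on 2R. Chromosome 4 and Y held 0 members and have 0.301 and 0.0336 Mb of eligible intron. The sex of the embryos was not given, and copy number of X against autosomes was not tested.

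The members spanned a wide range of signal. The median was 134 (95% interval 128 to 143), with quartiles of 95.3 and 204 and extremes of 2.20 and 2129. For promoter peaks the median was 160 (152 to 169), for intergenic peaks near starts 121 (116 to 131) and for distal peaks 114.8 (108 to 122). The interval of the members lay below that of promoter peaks and above that of distal peaks, and overlapped that of intergenic peaks. Of the 300 highest conservative peaks, 61 were members, which is 8.25% of members, against 10.1% of all conservative peaks and 14% of promoter peaks. The lowest values came from overlapping calls. All 15 members with a signal under 20 overlapped another conservative peak, and 12 of them overlapped a thresholded peak of replicate 1.

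In each replicate's own thresholded set, 639 members (86.5%, exact 95% interval 83.8 to 88.9) were found in replicate 1 and 479 (64.8%, 61.3 to 68.3) in replicate 2. Over all conservative peaks the shares were 86.5% and 65.5%, so the members recurred as often as the set as a whole. Both thresholded sets held 438 members, that of replicate 2 alone held 41, neither held 59, and the rest were in that of replicate 1 alone. In replicate 2 the members recurred less often than promoter peaks (71.7%, difference -6.90 points, 99% interval -12.4 to -1.5) and more often than distal peaks (50.3%, difference 14.5 points, 6.94 to 21.9). The difference from promoter peaks turned to 1.62 points in the higher-signal part of the set, with an interval that included 0 (-3.57 to 5.97). In replicate 1 the differences from all 3 classes had intervals that included 0. In the lowest of the 4 signal groups 16.8% were in both sets, then 40.5%, 81.0% and 98.9%. The signal and the replicate sets come from the same 2 libraries, so sorting by signal sets much of this order in advance. As candidates of any strength, 729 members were present in replicate 1 and 734 in replicate 2. The conservative set was made of peaks that recurred between replicates, so this presence was largely set by the choice of peaks. For the 724 present in both, the correlation of signals across members was 0.731 (Pearson, log2 values) and 0.634 (Spearman), as a description over peaks of the same pair of libraries.

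**Figure D4:**
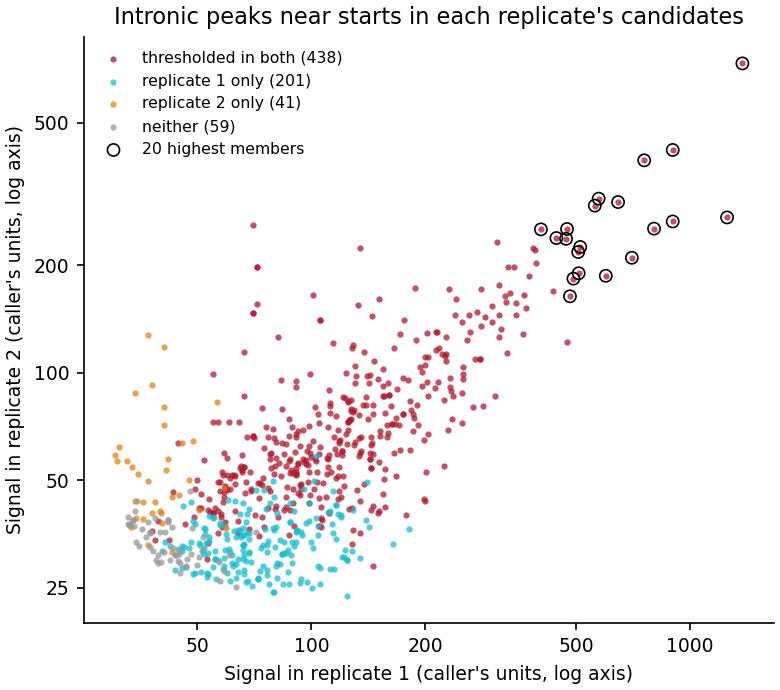
Signal of each member in replicate 1 (x axis) and replicate 2 (y axis), in the caller's units on log axes, for the 724 members that overlap a candidate in both replicates. Colours give the thresholded sets that hold the member, with counts over all 739, and open circles mark the 20 highest members. All of these were in both sets, which their choice by signal largely sets in advance.

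The 20 highest members all passed the threshold in replicate 1 and in replicate 2. They were chosen by signal from the same libraries, so this was largely set in advance. In 16 of them the summit was in a first intron (76.2% of all members). In 18 the closest start belonged to the host (81.5% of all members). On X were 9 (26.8% of all members), and 4 had a core word (10.8% of all members). The highest was in CG11050 at dm6 2L:6612555-6612887, rank 3 of 2984, with a signal of 1376 in replicate 1 (rank 5) and 733.5 in replicate 2 (rank 2). Its summit was 1026 bp downstream of the start, in an intron of 140 bp and 68 bp from the splice site, so the peak reached over the exons on both sides. The next was in Adf1, which encodes a transcription factor first known from the Adh promoter. It lay at 2R:6662900-6663220, 783 bp downstream of the start, with a signal of 1476, and was rank 9 in replicate 1 and rank 52 in replicate 2.

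A peak in CG32772 at X:4910228-4910510 had a signal of 1335 and ranks of 19 and 14 in the replicates. Where HmgZ and HmgD overlap, a pair of genes on opposite strands for chromatin proteins with an HMG box, the peak at 2R:21703219-21703611 had a signal of 1161 (ranks 20 and 54). Tlk, the gene of a Tousled-like kinase, had a signal of 1147 at X:3742084-3742365, 2330 bp downstream of a start (ranks 33 and 21). The peak in CG3726 at X:5918778-5919042 had 1057 (ranks 28 and 63), and that in norpA, which encodes the phospholipase C of phototransduction, had 943 at X:4324866-4325114 (ranks 46 and 41). Both replicates ranked these 5 peaks 63 or better, in different orders.

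Trl, which encodes GAGA factor itself, had a signal of 910 at 3L:14759353-14759662, in an intron 1535 bp downstream of a start, with ranks of 38 and 110. A core word lay 113 bp from its summit. NFAT, the gene of a transcription factor, had 884 at X:13640380-13640637 with the summit 1659 bp upstream of the closest start (ranks 63 and 36) and a core word at 78 bp. The peak in KCNQ, a potassium channel gene, at 2R:10159408-10159821 had a signal of 657 and its summit 738 bp upstream of a start of mlt, another gene. It also carried a core word, at 50 bp from the summit.

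Signals at other genes among the 20 highest were as follows. Raf, the kinase downstream of Ras, had a signal of 735 (507 in replicate 1 and 218 in replicate 2). MYPT-75D, a regulatory subunit of myosin phosphatase, had 710 (471 and 237). CHES-1-like, a forkhead transcription factor gene, had 684 (508 and 190), and mub, which encodes an RNA-binding protein, had 674 (492 and 183). Further peaks of this group were in CG12769 (861), CG9663 (831), LPCAT (789), CG9837 (737) and the overlap of chif, which encodes the fly Dbf4-like protein, with Hyls1 (665). Signals are not scaled between lists, so the lower values in replicate 2 do not show weaker binding there.

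The 739 members fell in 589 host genes, 6.21% of the 9485 genes that have any eligible intron. A single member was found in 453 of them, 90 had 2 and 46 had 3 or more, while 67 members were inside more than 1 gene. CHES-1-like had the most, with 10 members in 14.7 kb of eligible intron, from X:7691476 to X:7707113. Their signals ran from 23.7 to 684, and 7 passed the threshold in replicate 1 and in replicate 2. The lowest of them overlapped the member next to it. CG1677 and lncRNA:CR44357, which overlap, shared the same 9 members (signals from 77.5 to 408), and the closest starts there were mostly of smaller genes inside them, such as unc-119, CBP and Dok. Tlk had 6 (108 to 1147), kirre, whose product acts in cell adhesion during myoblast fusion, had 5, and shn, a zinc finger gene of the Dpp pathway, had 5 (105 to 202), of which 1 was in both replicates' sets. A further 13 hosts had 4 each, among them CG12535 and CG13917. Of the 19 hosts with 4 or more members, 11 are on X, with CG1677 and lncRNA:CR44357 counted separately for the same 9 members. X held 26.8% of all members and 19.7% of eligible intron. The share of all host genes on X is not given here.

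Host genes had a promoter peak more often than other genes. A conservative summit lay within 500 bp of an own start in 153 of 589 host genes (26.0%) and in 1225 of 8896 other genes with eligible intron (13.8%), with 14.5% over both. The difference was 12.2 points (99% interval 7.73 to 17.2). Host genes had more eligible intron, with a median of 7191 bp against 390 bp. Among the 2369 genes with the most of it (2903 bp or more), 26.2% of 469 host genes and 12.7% of 1900 others had a promoter peak, a difference of 13.5 points (8.24 to 19.4). The remaining host genes had a member and no conservative peak at an own start.

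Gene groups were compared by the number of members per Mb of their eligible intron, beside 28.2 per Mb over all genes, where overlapping genes are counted separately. Genes of developmental signalling pathways held 32 members in 19 of 61 genes, or 63.5 per Mb (95% counting interval 43.4 to 89.6). The highest were in aos, the secreted inhibitor of the EGF receptor (signal 528, replicate ranks 158 and 178), Mad, the Smad of the Dpp pathway (380, ranks 355 and 241), and InR, the insulin receptor (287, ranks 816 and 251). Small GTPases and their regulators held 29 members in 15 of 51 genes, or 67.7 per Mb (45.3 to 97.2), led by Rab11, a GTPase of recycling endosomes (262), RhoGEF64C (246) and C3G, an exchange factor for Rap1 (234). These 2 intervals lay above the value for all genes. They count each peak as independent although several share a gene, so they are too narrow. The 18 lists were compared without adjustment and were chosen with earlier results of these data known, so no call is made.

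For the other groups the interval included the value for all genes. Kinases and phosphatases held members in 10 of 55 genes (38 per Mb), led by Raf, Btk (425) and msn (310). Muscle and cytoskeleton genes did so in 10 of 50 (36.4 per Mb), led by Dhc64C, the dynein heavy chain (527), Msp300, a nesprin (405), and tsr, the fly cofilin (374). Insulator and boundary protein genes held 5 members in 3 of 18 genes (78.9 per Mb, interval 25.6 to 184), with a second member in Trl (134) and 1 in psq, which also binds GAGA sequences (135). Chromatin, Polycomb and trithorax genes had members in 5 of 49 (51.7 per Mb), among them grh (289) and the Polycomb gene ph-p (188 and 143). Glycolysis and central carbon genes had 4 of 22 (100.6 per Mb, 27.4 to 257.5), namely Zw, the glucose-6-phosphate dehydrogenase gene (354), Men, malic enzyme (125.2), kdn, citrate synthase (113), and 1 more. The heat shock group had Hsp83 (408) and mrj (230), 2 of 11 (106 per Mb, 12.8 to 383, in only 18.9 kb of eligible intron).

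Segmentation and Hox genes held 5 members in 4 of 27 genes (32.0 per Mb). The highest signals were at Abd-B (128), Antp (111) and the signalling gene hh (78.1), beside a median of 134 over all members. Nuclear receptor and ecdysone response genes held members in 6 of 24 (24.3 per Mb), the highest at ImpL2, which encodes a secreted insulin-binding protein (431 and 194), and br, an early ecdysone gene, where the closest start was that of Mur2B (191). Axon guidance and adhesion genes had 9 of 56 (23.3 per Mb), with kirre at 306 and 299 and Sema1a at 271. RNA binding and splicing genes had 9 of 46 (21.2 per Mb), with mub, brat (468) and shep (252). Ion channel and synaptic genes had 6 of 49 (20.7 per Mb), with KCNQ, Irk1 (319) and dlg1 (165). The list of neural transcription factors and neural fate genes had 4 of 35 (12 per Mb, 3.26 to 30.7). Its highest were brat again and elav (223), both also on the RNA binding list, and zfh1 (458). The ZAD family had rgr only (119), 1 of 17 (27.6 per Mb, 0.699 to 153.8). Cytoplasmic ribosomal protein genes (27), mitochondrial ribosomal protein genes (23) and translation factor genes (40) held 0, but their eligible intron came to 5.34, 12.4 and 29.5 kb, so that the counting intervals reached up to 691 per Mb.

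**Figure D5:**
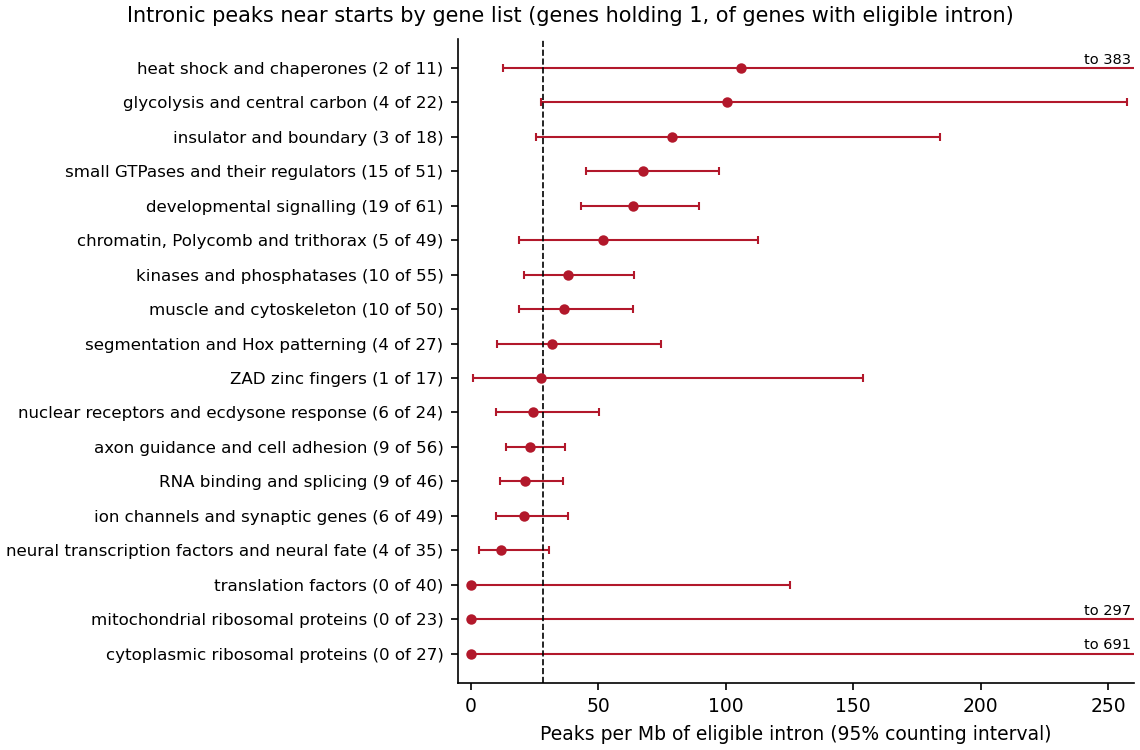
Members per Mb of eligible intron (x axis) for 18 gene lists (y axis, with the number of genes that hold a member of those with eligible intron), with 95% counting intervals and a dashed line at 28.2 per Mb for all genes. The intervals of developmental signalling and small GTPase genes lie above the line, but they count peaks of the same gene as independent and are unadjusted. Lists with little intron have intervals that run past the axis.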

How the data were processed

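Chromatin immunoprecipitation libraries of 2 replicates, sheared to 200 to 800 bp, were analysed as peak lists on dm6, per the labels. Aligner, peak caller and read depth: not given in the sources used here. For each peak the deposited score is a transformed IDR, with a minimum of 830 in the conservative set. The deposited signal comes from the authors' peak caller, in its own units and without scaling from list to list. Signals were used within a list, and as log2 of the deposited signal for the correlation. In the series' ranked lists 4 kinds of column for separate inputs name no replicate and stayed unused. Other deposited values, the offsets of summits, gave positions. The ranked list of replicate 1 held 112688 candidates and that of replicate 2 held 83284, with 3636 and 3149 in the thresholded sets.

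Gene models were those of Ensembl release 115 without pseudogenes and transposable elements, and 0 records ended beyond the arms of the RefSeq assembly. Peaks were compared by an overlap of 1 bp. Shares have exact binomial 95% intervals, and differences of shares have Newcombe 99% intervals (statsmodels 0.14.6), called where they exclude 0. The latter treat both shares as independent, also where they come from the same members. In all, 10 properties of place and 96 motif differences (8 for each of 12 motifs) were computed, without adjustment. Peaks are not replicates of a condition, so these intervals cover counting error only. Where intervals are said to overlap, the difference itself was not tested. Words were sought within 50 bp of summits as the main setting and 150 bp as an alternative. The members, gene lists and tests were chosen with earlier results of these data known. Position profiles, zones, word direction and groups by signal or intron, and flanks on the left, were added after the values were seen. Named are the 20 highest members (1 of them is not reported here), up to 3 per list, 8 hosts with most members (of 13 tied at 4, those 2 first by name) and the peaks next to each limit. The printed word windows and the neighbours Dok, CBP, unc-119, Mur2B and mlt were chosen after their values were seen, and 12 names in 8 lists had no match. Steps were tested on simulated data.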

Additional observations from a re-analysis of the deposited data

How the results depend on the processing

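For the results that answer a comparison, 84 of 111 values under other settings kept direction and call or, for counts and values with no test, stayed within 1.5 times or within the interval. The other 27 did not, and are given here. The number of peaks under the rule was 1304 in the larger set, 360 in the higher-signal part of the conservative set and 464 with an outer limit of 2000 bp. It ran from 722 to 872 in the thresholded set of 1 replicate alone. The first intron difference (13.7 to 18.7 points in 1 replicate alone), the promoter peak difference (14.4 to 24.0) and the core word difference (6.76 to 9.34) kept their calls under each of the settings of peak set, limit, annotation and summit that were run.

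CACTG within 50 bp of summits exceeded its flanks in the larger set (7.21 points), with protein-coding genes only (5.81), within 100 bp (28.0), against flanks on the left (6.36) and in 1 replicate alone (6.51 to 7.45). Against candidates it passed in the larger set (4.23), with an inner limit of 1000 bp (4.82) and within 100 bp (23.3). In 1 replicate alone it was 2.96 to 3.79 and passed in replicate 2, and it turned to -0.459 in the higher-signal part. The cause was not tested, apart from the window, where the zones given above show matches beyond 50 bp.

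Shares in replicate sets were 63.6% and 48.1% in the larger set and 98.9% and 91.4% in the higher-signal part, and that of replicate 1 was 83.5% where the summit had to lie inside. The difference from promoter peaks in replicate 1 turned to 2.54, 0.594 and, with an inner limit of 1000 bp, 0.00877 points, and that in replicate 2 turned to 1.62 in the higher-signal part. The density ratio was 1.21 and 1.88 with the inner and outer limits changed and 1.29 to 1.37 in 1 replicate alone. The ratio of the median signal to that of all peaks moved from 0.979 to 0.925 in the higher-signal part and was 1.03 in replicate 2 alone, within the interval. The BEAF-32 difference from flanks turned to -0.406 within 100 bp. With the gene of the closest start in place of the host, the nuclear receptor, axon guidance and chromatin lists held 3, 4 and 3 genes.

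Samples could not be paired between groups because there was 1 group. Summits and flanks, and words and their backward forms, came from the same members. Their intervals did not use this pairing, so calls near the edge of an interval are uncertain. Read depth is unknown, controls were not analysed here, and values from 1 replicate alone are the only spread between the 2 replicates. How surely the summits of weak candidates are placed was not tested.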
